A study of Drosophila melanogaster with 2 samples.

Results

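Odorant (Or), gustatory (Gr) and ionotropic (Ir) receptor genes encode the membrane proteins with which the fly's sensory neurons detect odours, tastes, carbon dioxide, humidity and temperature. They were chosen by name alone, as the protein-coding genes whose symbol is Or, Gr or Ir followed by a number and a letter, which gave 179 of 13945 protein-coding genes, 59 of them Or, 60 Gr and 60 Ir. A further 7 genes with such names are annotated as pseudogenes and were left out. Orco, the odorant co-receptor, has no such symbol and was counted with the accessory genes.

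Odorant and gustatory receptors are related families of insect ligand-gated ion channels, and ionotropic receptors descend from ionotropic glutamate receptors. Each sensory neuron expresses a small choice of them, often with a co-receptor, and that choice is set by combinations of transcription factors, several of them homeodomain or POU-homeodomain proteins. Most of the genes are compact, and many lie side by side as products of local duplication.

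The binding data are chromatin immunoprecipitation with sequencing (ChIP-seq) of Bsh, a homeodomain transcription factor known from optic lobe neurons, in whole *Drosophila melanogaster* embryos of strain bsh-GFP aged 10 to 12 h. This age is from the sample's source label, since a separate age label holds a value that no embryo can have. The transgenic line carries Bsh with green fluorescent protein at its C-terminal end, both biological replicates come from this 1 line, and precipitation was with an antibody against GFP according to the sample description, while the antibody label names bsh. There were 2 replicates and no second condition, so every value below is a description with no test. Whole embryos mix all cell types, so binding in a few sensory neurons and binding in many other cells cannot be told apart.

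Peaks came as 4 lists, namely 1 per replicate, 1 from the pooled replicates, and the authors' set that passed an irreproducible discovery rate (IDR) threshold. The replicate and pooled lists hold 30000 peaks each and the IDR list 7927, all of which are, by region, summit and signal value, among the 7927 strongest pooled peaks. A gene was counted when a peak summit lay in its window, meaning its annotated span and the 2 kb on each side. The signal value is the authors' own score per peak, on 1 scale in the IDR and pooled lists and on another in each replicate list, and read depth is unknown. Intervals are exact binomial 95% intervals that cover counting error only and take genes as independent, although clustered genes share window sequence.

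A summit of the IDR list lay in the window of 18 of the 179 receptor genes, 10.1% (6.07 to 15.4), where the share of all protein-coding genes was 41.8%. Of the 59 Or genes 2 had one (3.39%, 0.413 to 11.7), with 8 of the 60 Gr and 8 of the 60 Ir genes (each 13.3%, 5.94 to 24.6). Receptor genes are short, with a median span of 1691 bp against 2166 bp for all protein-coding genes. Among the 5329 protein-coding genes whose windows fell between the 10th and 90th percentile of receptor windows, 5238 to 7375 bp, 39.3% had a summit, and 15 of the 143 receptor genes in that range did (10.5%). In the same range own promoters held an IDR summit for 2 receptor genes, against 24.1% of all protein-coding genes, and spans for 0, against 6.76%.

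The share of receptor genes was below the background in the longer lists as well. In the pooled list 43 receptor genes had a summit (24%, 18 to 31), against 62.5% of all protein-coding genes, and these were 11 Or, 18 Gr and 14 Ir genes. In replicate 1 there were 43 receptor genes against a background of 65.5%, and in replicate 2 there were 48 against 65.6%. Of these, 42 had a summit in both replicates, where the background was 61.7%, while 1 had it in replicate 1 alone and 6 in replicate 2 alone. Of all 13945 protein-coding genes, 9134 had one in replicate 1, 9150 in replicate 2 and 8603 in both, so single-replicate genes also occur in the background. No summit in any of the 4 lists fell in the windows of 130 receptor genes (72.6%), against 30.3% of all protein-coding genes. They comprise 44 Or, 41 Gr and 45 Ir genes and include Or10a, Or13a, Or19a, Gr10a, Gr10b, Gr21a, Ir100a, Ir10a and Ir11a, the first of each family in alphabetical order.

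**Figure D1:**
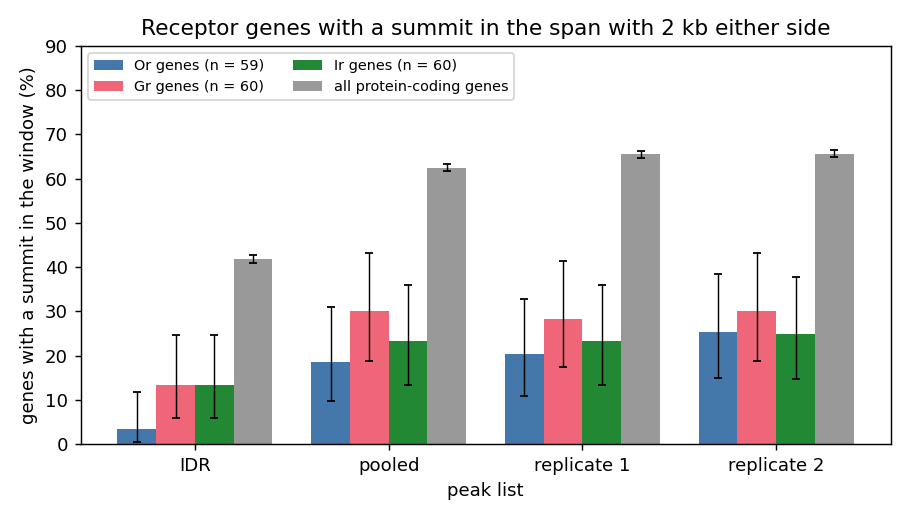
Percentage of Or, Gr, Ir and all protein-coding genes (bars, vertical axis) with at least 1 summit in the window, in each of the 4 peak lists (horizontal axis). Error bars are exact binomial 95% intervals. In every list the bar of each receptor family stands below that of all protein-coding genes, 10.1% of all receptor genes against 41.8% in the IDR list.

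Sequence that cannot be assigned to 1 place was rare in the spans of these genes. Over the spans of 173 of the 179 receptor genes, at least 90% of 50-base words occur once on the chromosome arms, and 17 of these 173 genes had an IDR summit in the window (9.83%), where the same cut left 42.7% of protein-coding genes with one. The other 6 genes are Or19a and Or19b, each at 25.1%, Ir93a at 42.9%, Ir40a at 77.1%, Ir41a at 78.5% and Ir10a at 85.3%. The lowest span value among the 79 clustered genes was 97.3%, at Gr10a and Or10a. Over whole windows 13 receptor genes (7.26%) were below 90%, against 7.31% of all protein-coding genes. These were 10.2% of Or, 1.67% of Gr and 10.0% of Ir genes, and the lowest clustered window was at 91.6%. The cut on spans does not remove genes with repeated sequence in the flanks alone.

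No IDR summit lay inside any receptor gene. The spans of the 179 genes cover 466731 bp and held 0 IDR summits, where the spans of all protein-coding genes held 5.28 per 100 kb and 15.6% of these genes had at least 1. With the flanking 2 kb, 1013194 bp of merged receptor windows held 23 summits, or 2.27 per 100 kb. The density was 6.56 per 100 kb in merged windows of all protein-coding genes and 5.92 per 100 kb over the chromosome arms. By family the density was 0.968 per 100 kb in Or windows, 3.76 in Gr windows and 2.25 in Ir windows. The Ir value is lowered by the long genes Ir40a and Ir41a, which had no summit in any list. Their windows make up 28851 and 108437 bp of the 445347 bp of Ir windows. Their spans make up 24851 and 104437 bp of the 466731 bp of receptor spans. In the longer lists the receptor spans held 7 summits in the pooled list, 9 in replicate 1 and 13 in replicate 2, or 1.5, 1.93 and 2.79 per 100 kb. All protein-coding spans held 21.6 per 100 kb in the pooled list, 21.6 in replicate 1 and 21.8 in replicate 2. Or spans with a summit numbered 6 in replicate 2 (10.2%), against 34.2% of all protein-coding genes. They numbered 0 in replicate 1 and in the pooled list, against 33.7% and 31.5%. The signal values of the 7 pooled summits lay between 29.6 and 47.2, below the pooled median of 66.9.

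Few of the summits lay at the promoters of the receptor genes themselves. Taking a promoter as the 500 bp on either side of an annotated transcription start site (TSS), 2 of the 179 receptor genes had an IDR summit at their own, 1.12% (0.136 to 3.98), against 23.5% of all protein-coding genes. In the pooled list 12 did (6.70%, 3.51 to 11.4), against 46.4%, in replicate 1 there were 13 (7.26%), against 48.0%, and in replicate 2 there were 19 (10.6%), against 48.4%. Among the genes that had any IDR summit in the window, the summit was at an own promoter for 2 of 18 receptor genes (11.1%) and for 56.2% of all protein-coding genes. The 2 kb before the gene held an IDR summit for 8 receptor genes (4.47%, background 24.7%), and the 2 kb after it for 11 (6.15%, background 13.8%).

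Genes neighbouring the receptor genes gave other values. The receptor windows contain the TSS of 87 other protein-coding genes, and 16 of these had an IDR summit within 500 bp of a TSS, 18.4% (10.9 to 28.1). Any TSS of the neighbour was used, so the summit could also lie outside the receptor window. In the pooled list 29 of the 87 did, 33.3% (23.6 to 44.3). The intervals of neighbours and receptor genes do not overlap in either list, while the IDR interval of the neighbours spans the 23.5% of all protein-coding genes and their pooled interval lies below the 46.4% of all protein-coding genes.

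**Figure D2:**
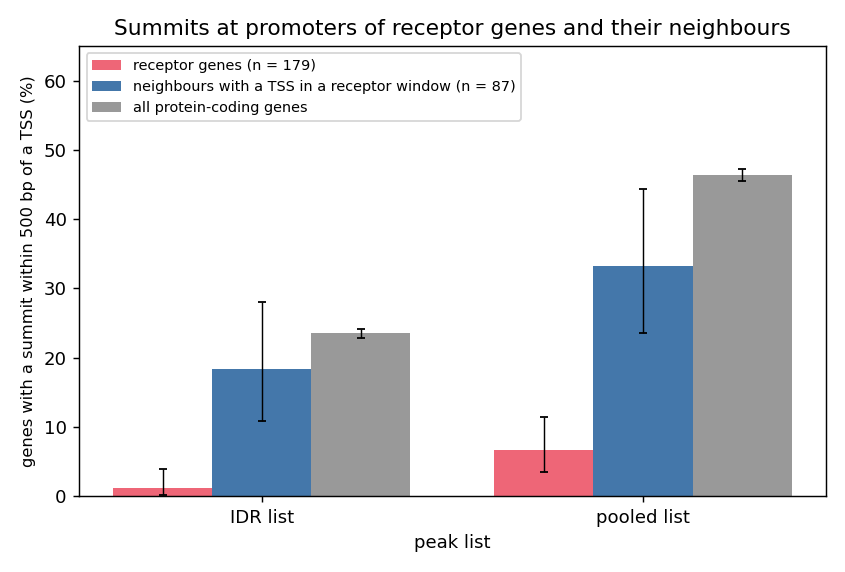
Percentage of genes with a summit within 500 bp of a TSS (vertical axis) in the IDR and pooled lists, for the 179 receptor genes, the 87 other protein-coding genes with a TSS in a receptor window, and all protein-coding genes. Error bars are exact binomial 95% intervals. In the IDR list the bars stand at 1.12%, 18.4% and 23.5%.

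The profile along the gene repeats this with finer steps. In the 500 bp before the 5′ end, 17.4% of all protein-coding genes had an IDR summit, and 2 receptor genes did (1.12%). In the first 1000 bp after the 5′ end no receptor gene had one, while each 500 bp bin held one for 3.70% and 3.16% of all protein-coding genes. Farther upstream the receptor share passed the background only between 2000 and 3000 bp before the 5′ end. It was 3.35% against 3.22% at 2000 to 2500 bp and 4.47% (8 genes) against 3.50% at 2500 to 3000 bp. On either side of this stretch it was below, for example 1.12% against 3.58% at 1500 to 2000 bp. At 4500 to 5000 bp it was 2.23% against 3.69%. In the pooled list the receptor genes stayed below at every step out to 5 kb, for example 5.59% against 11.3% at 2000 to 2500 bp upstream. The distance from a receptor TSS to the nearest IDR summit had a median of 15258 bp, against 4902 bp for all protein-coding genes, and by family it was 19635 bp for Or, 12186 bp for Gr and 11760 bp for Ir genes. Ir40a and Ir41a, both receptors of antennal neurons, lay farthest away, at 220320 and 204830 bp, and they are also the longest receptor genes at 24851 and 104437 bp.

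**Figure D3:**
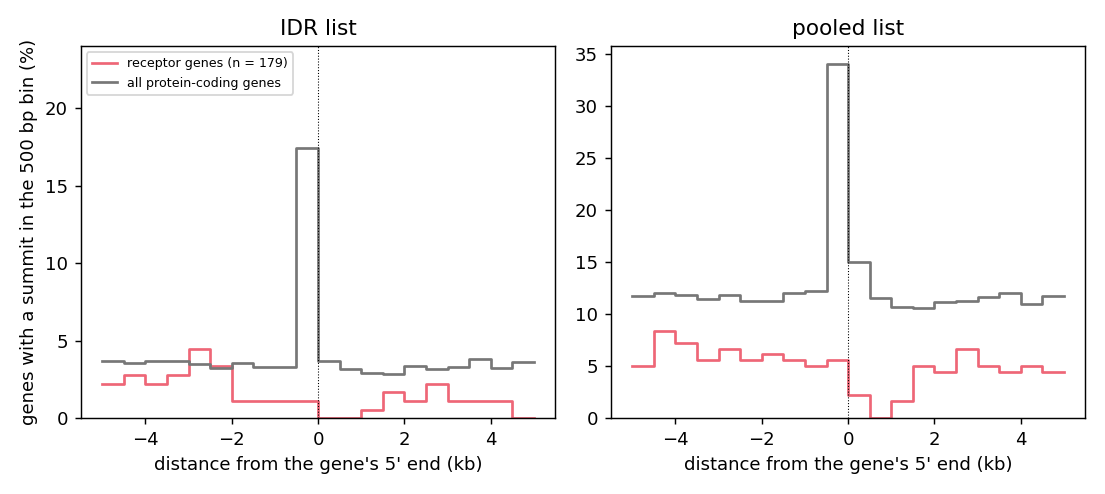
Percentage of genes with a summit (vertical axis, with a scale of its own in each panel) in each 500 bp bin from 5 kb before to 5 kb after the 5′ end of the gene (horizontal axis), for the 179 receptor genes and all protein-coding genes. The left panel shows the IDR list and the right panel the pooled list. The background peaks in the bin just before the 5′ end, at 17.4% and 34.1%, where receptor genes stand at 1.12% and 5.59%.

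The 23 IDR summits of receptor windows were placed by whose promoter they lay in. There were 11 in a promoter of another gene only, 1 in a promoter of both a receptor and another gene, 1 in a receptor promoter only, and 10 outside promoters (43.5%). Over all 7927 IDR summits, 37.0% lay within 500 bp of any TSS, a share inside promoters where the 43.5% is one outside them. Only 6764 of the 7927 lay in a window of a protein-coding gene, while all 23 do by rule. The 2 sets are therefore not alike. The median signal value of the 23 was 392 in the pooled replicates, with a range of 157 to 1210.1. All IDR peaks had a median of 312. All 23 overlapped a peak in both replicate lists, which the selection of the IDR list by agreement between replicates largely sets in advance. Of the 23, 2 were among the 1000 strongest, which is 8.70% of them against 12.6% of all IDR peaks.

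**Figure D4:**
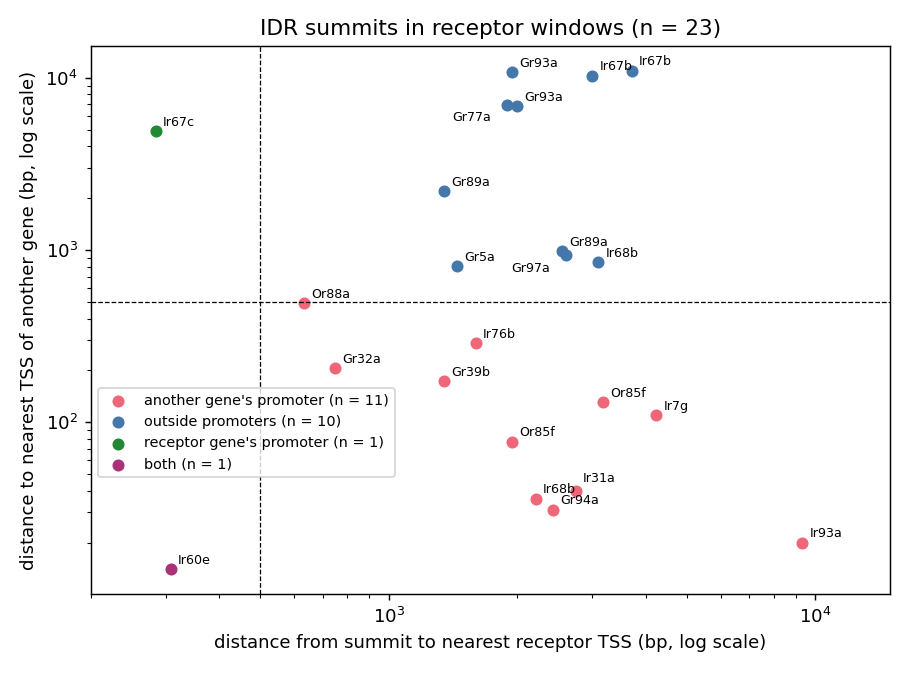
Distance from each of the 23 IDR summits to the nearest receptor TSS (horizontal axis, bp, log scale) and to the nearest TSS of any other gene (vertical axis, bp, log scale), labelled by the receptor gene whose window holds it. Dashed lines mark 500 bp. The 2 summits left of the vertical line are those of Ir67c and Ir60e, and 12 lie under the horizontal line, in a promoter of another gene.

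The 2 strongest of these summits lay in promoters of neighbours. Or85f, the receptor gene whose window held the strongest peak, had 2 IDR summits beyond its 3′ end. The stronger lay 131 bp from the CG8132 TSS and in the promoter of the ribosomal protein gene RpL34b, 3174 bp from the Or85f TSS, with a signal value of 1210.1 in the pooled replicates, 687 in replicate 1 (rank 592) and 529.7 in replicate 2 (rank 556). The weaker lay 77 bp from the TSS of CG34117 and ranked 2211 and 1914. The ranks of both peaks were close between the replicates, which selection by IDR favours. The summit near Or88a, a receptor of trichoid sensilla that respond to fly odours, lay 490 bp from the TSS of CG12402 and 634 bp from its own, just outside the promoter, and ranked 1639 and 1269.

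Several Ir genes were counted through neighbours in the same way. The summit near Ir68b was 36 bp from the TSS of yps, which encodes a Y-box RNA-binding protein, and had signal values of 511 in replicate 1 (rank 987) and 436 in replicate 2 (rank 804). Those of Ir31a and Ir93a, both expressed in antennal neurons, were 40 bp from the TSS of RpS27A and 20 bp from that of RpS30, both ribosomal protein genes. Ir76b is a broadly used co-receptor, and its IDR summit lay 288 bp from the TSS of CG14187 and ranked 6332 in replicate 1 and 4139 in replicate 2. The summit of Ir7g, the last gene of a cluster of 5, was 110 bp from the TSS of the mitochondrial enzyme gene Acat1. In none of these 5 cases was the receptor promoter itself in the IDR list.

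Among Gr genes, 3 had their summit in a promoter of a neighbour. They are Gr94a, 31 bp from the TSS of the tumour suppressor gene p53, Gr32a, which encodes a receptor of bitter compounds and male pheromone, 206 bp from that of the lysosomal enzyme gene Idua, and Gr39b, 173 bp from that of CG8665. By replicate, ranks were 2458 and 3310 at Gr94a, 3086 and 3792 at Gr32a, and 4736 and 4134 at Gr39b. Gr5a, the receptor for the sugar trehalose, had a summit in an intron of its upstream neighbour Tre1, a G protein-coupled receptor of germ cell migration, 806 bp from the Tre1 TSS and 1446 bp from its own. Its signal value was 513 in the pooled replicates, and it ranked 2183 and 2379.

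The 10 summits outside promoters belong to 7 receptor genes: Gr5a, Gr77a, Gr89a, Gr93a, Gr97a, Ir67b and Ir68b. That of Gr97a lay in an intron of its neighbour Tsp97E and that of Gr77a in an intron of CG13252, whose span contains Gr77a, with pooled signal values of 302 and 246, and the weaker peak of Ir68b lay in an intron of yps. Among the receptor genes with an IDR summit, 5 have no TSS of a non-receptor protein-coding gene in the window: Gr77a, Gr89a, Gr93a, Ir67b and Ir67c. Gr89a had the strongest peak of the 10 outside promoters, in intergenic DNA beyond its 3′ end, 1346 bp from its TSS, with 461 in replicate 1 (rank 1160) and 376 in replicate 2 (rank 1044), and a second of 450.1 in the pooled replicates. Gr93a, a bitter receptor gene needed for the response to caffeine, was flanked by a peak on each side at 1997 and 1942 bp from its TSS, with pooled signal values of 351 and 610.3. The nearest TSS of a non-receptor gene to either was at 6814 bp. The neighbouring tandem genes Gr93b, Gr93c and Gr93d had no IDR summit in their windows but each had at least 1 in the pooled list.

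Ir67b and Ir67c, a tandem pair on 3L, are the receptor locus with the most IDR summits away from other genes. Beyond the 3′ end of Ir67b lay 2 summits, with signal values of 658 and 334 in the pooled replicates, 372 and 191 in replicate 1 and 285 and 141 in replicate 2. The third lay 284 bp from the TSS of Ir67c, and no TSS of a non-receptor protein-coding gene was nearer than 21571 bp. The TSS of Ir67b was 2406 bp from its nearest IDR summit. The third summit is the single IDR summit in a receptor promoter alone. It was also the weakest of the 23, with a pooled signal value of 157, just above the end of the IDR list at 151, and ranks of 8892 in replicate 1 and 7854 in replicate 2. A list of the strongest 7927 peaks of replicate 1 would therefore leave it out.

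Each sequence below is the 101 bases centred on a summit (assembly dm6, plus strand), read from the RefSeq release 6 genome and chosen as the summit of a receptor promoter, the strongest outside promoters, 1 beside Gr93a, and those in the promoters of yps and p53. Capitals mark, on either strand, every TAATTA or CAATTA, the core that many homeodomain proteins bind, and every CGATA or TATCGATA. TATCGATA is the DNA replication-related element (DRE) of housekeeping promoters. CGATA is a shorter part of it and alone is not a DRE.
Ir67c, own promoter, chr3L:10434339-10434439: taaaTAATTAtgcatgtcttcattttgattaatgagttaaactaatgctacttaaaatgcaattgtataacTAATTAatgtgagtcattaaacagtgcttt
Gr89a, intergenic, chr3R:16497563-16497663: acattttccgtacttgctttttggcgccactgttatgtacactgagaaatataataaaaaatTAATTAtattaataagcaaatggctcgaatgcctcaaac
Gr93a, intergenic, chr3R:21834395-21834495: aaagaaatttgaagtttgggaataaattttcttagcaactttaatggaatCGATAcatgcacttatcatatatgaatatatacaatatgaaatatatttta
Gr94a, promoter of p53, chr3R:23054063-23054163: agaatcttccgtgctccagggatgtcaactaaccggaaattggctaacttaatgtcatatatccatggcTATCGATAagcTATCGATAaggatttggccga
Ir68b, promoter of yps, chr3L:12125136-12125236: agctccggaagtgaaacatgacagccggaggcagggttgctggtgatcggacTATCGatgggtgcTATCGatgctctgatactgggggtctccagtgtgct
The Ir67c sequence holds TAATTA at 2 places in AT-rich DNA (23.8% GC). The p53 and yps promoters hold TATCGATA and CGATA (read as TATCG), each at 2 places, in DNA of 42.6% and 56.4% GC. The intergenic Gr93a sequence also holds CGATA, and the intergenic Gr89a sequence TAATTA.

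The motifs were counted within 50 bp of each of the 23 summits, on both strands. TAATTA was present at 4 summits (17.4%, 4.95 to 38.8), those of Ir67c, Gr89a, Or88a and Or85f, against 11.0% of all IDR summits, and CAATTA at 1, against 10.9%. CGATA was present at 8 (34.8%, 16.4 to 57.3), against 12.4% of all IDR summits, TATCGATA, which contains it, at 1 (0.946% of all), and GAGAG at 4 (17.4%, against 8.55%). The E-box CANNTG was at 9 (39.1%, against 33.4%). The interval of CGATA lies above the value of all IDR summits, and those of the other motifs include it. The median GC content was 27.7%, against 30.7% for all IDR summits.

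Receptor promoters hold the homeodomain core letters in a larger share than promoters in general. In the 300 bp from 250 before to 50 after the 5′ end, TAATTA was present in 80 of the 179 receptor promoters (44.7%, 37.3 to 52.3), against 20.4% of all protein-coding promoters, and CAATTA in 94 (52.5%, 44.9 to 60), against 25.2%. By family, TAATTA was in 58.3% of Gr, 44.1% of Or and 31.7% of Ir promoters. CAATTA was in 63.3% of Ir, 59.3% of Or and 35.0% of Gr promoters. TATCGATA was present in 1 receptor promoter (0.559%), against 9.36% of all. GC content was close, with a median of 39.3% in receptor promoters and 38.0% in all.

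Of the 80 receptor promoters with TAATTA, 2 had an IDR summit within 500 bp of a TSS (2.50%), those of Ir67c and Ir60e, and 8 a pooled summit (10.0%). Of the 99 without it, 0 had an IDR summit and 4 a pooled summit (4.04%). For CAATTA the pooled shares were 6.38% of the 94 receptor promoters with it and 7.06% of the 85 without, and the IDR counts were 2 and 0. Over all protein-coding promoters an IDR summit was present at 26.1% with TAATTA and 22.9% without, at 22.2% with CAATTA and 24% without, and at 36.9% with TATCGATA and 22.1% without. These are matches of letters and not shown to be binding sites.

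The second receptor promoter in the IDR list was that of Ir60e, on 2R. Its summit lay 308 bp from the Ir60e TSS but 14 bp from that of CG13585, which starts next to it, and had ranks of 5281 in replicate 1 and 5567 in replicate 2. Beyond Ir67c and Ir60e, summits at receptor promoters were in the weaker, pooled part of the lists. Those near Gr97a and Gr63a, a subunit of the carbon dioxide receptor, had pooled signal values of 92.8 and 83.1 and were 37 bp from the TSS of CG5521 and 41 bp from that of Lamtor4. The other receptor promoters with a pooled summit were those of Gr77a, Gr89a, Gr47b, Or65c, Or45b, Ir76b, Ir25a and Ir68b, with signal values of 30.9 to 51.9. Of the 12 receptor genes with a pooled summit at their own promoter, 3 had no peak there in 1 of the replicates. Ir25a, a broad co-receptor, ranked 21403 in replicate 1 and had none in replicate 2, and Ir76b ranked 24773 in replicate 2 and had none in replicate 1. Gr47b had a peak in replicate 1 alone, at rank 27956.

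**Figure D5:**
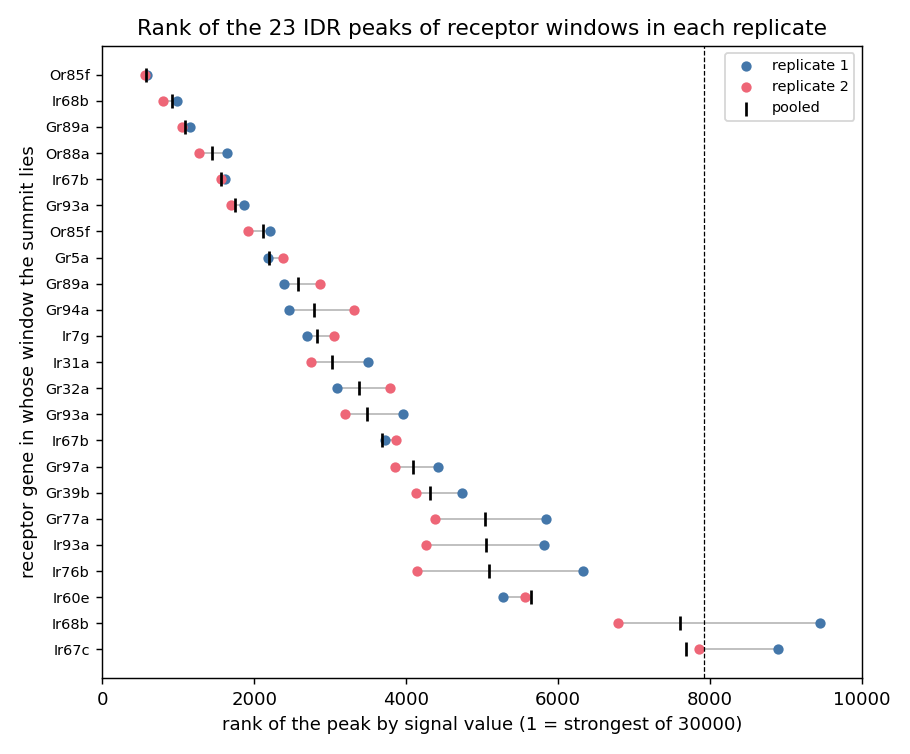
Rank of each of the 23 IDR peaks of receptor windows by signal value (horizontal axis, 1 is the strongest of 30000), in replicate 1, replicate 2 and the pooled replicates, one line per peak and labelled by receptor gene. The dashed line marks rank 7927, the length of the IDR list. Both replicates rank 21 of the peaks inside it, and the last 2, the weaker Ir68b peak and the Ir67c peak, lie beyond it in replicate 1.

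Clustered genes held summits in a smaller share than single ones. Receptor genes at most 5 kb apart were joined into clusters, which gave 79 genes in 28 clusters and 100 single genes. An IDR summit lay in the window of 3 clustered genes (3.8%, 0.790 to 10.7), Ir67b, Ir67c and Ir7g, and of 15 single genes (15%, 8.65 to 23.5). For Gr genes the counts were 0 of 34 clustered and 8 of 26 single genes (30.8%), for Or genes 0 of 17 and 2 of 42 (4.76%), and for Ir genes 3 of 28 (10.7%) and 5 of 32 (15.6%). The largest clusters are Gr64a to Gr64f with 6 sugar receptor genes, Gr22a to Gr22e with 5, and Ir7c to Ir7g with 5. The Gr64 and Gr22 clusters had no summit in any list, and the nearest IDR summit was 8067 and 43755 bp from a TSS of the cluster. The intervals of clustered and single genes overlap, and genes of 1 cluster share summits and windows, so the 79 are fewer than 79 independent observations.

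A TSS of a non-receptor protein-coding gene lay in the window of 61 receptor genes, 41 single and 20 clustered, and 13 of the 61 had an IDR summit (21.3%, 11.9 to 33.7). Without such a TSS it was 5 of 118 (4.24%, 1.39 to 9.61). A similar division over all protein-coding genes, but by any other protein-coding TSS in the window, gave 46.7% and 25.7%. Both receptor shares were below these values. The divisions are not alike, since a receptor gene with only another receptor's TSS in the window counts as without one. Among genes with a neighbour's TSS in the window, 12 of 41 single (29.3%, 16.1 to 45.5) and 1 of 20 clustered genes (5%, 0.127 to 24.9) had a summit.

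Groups of receptor genes with a known function are small, and their counts stand against backgrounds of 41.8% in the IDR list and 62.5% in the pooled list. Of the 9 sugar receptor genes, Gr5a alone had an IDR summit, Gr61a had 2 pooled summits, and Gr43a, the internal fructose sensor, and the Gr64 genes had none in any list. Of the carbon dioxide receptor genes Gr21a and Gr63a, neither had an IDR summit and Gr63a had 2 pooled summits. Gr32a had the single IDR summit among the bitter receptor genes Gr32a, Gr33a and Gr66a, with 1 pooled summit for Gr66a and none for Gr33a. Gr28b, a receptor also known for heat and light sensing, had none in any list. Of the Ir co-receptors, Ir76b had its IDR summit in the promoter of CG14187, Ir25a 2 pooled summits, and Ir8a none, so that 2 of 3 had a pooled summit, in both cases also at an own promoter. Of the 17 antennal Ir genes, 3 had an IDR summit (17.6%, 3.8 to 43.4), Ir31a, Ir76b and Ir93a. None of the 26 Or genes of the larval olfactory organ did, and 3 had a pooled summit.

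For genes that work with the receptors or are related to them, the same window was used, with the same background of 41.8% in the IDR list. Odorant-binding proteins, which carry odorants in the sensillum lymph, had an IDR summit in the window for 10 of 52 genes (19.2%, 9.63 to 32.5) and at an own promoter for 1 (1.92%), Obp99b at 250 bp, with none inside a span. The strongest near an odorant-binding protein gene, at Obp84a, lay 108 bp from the TSS of CG1227. Orco and the membrane proteins Snmp1 and Snmp2 had no summit in the IDR or pooled list. The ionotropic glutamate receptors, the relatives of the Ir family at synapses, had an IDR summit for 4 of 13 genes (30.8%, 9.09 to 61.4), GluRIIA, GluRIIB, Nmdar1 and Nmdar2, and that of Nmdar1 lay inside the gene. GluRIIA and GluRIIB were counted through 1 shared peak, 335 bp from the GluRIIB TSS, and the Nmdar2 summit lay 12 bp from the TSS of sta. Of 12 regulators of receptor choice and sensory neuron fate, 5 did (41.7%, 15.2 to 72.3), a share at the background: acj6, lz, sim, vvl and zf30C. The POU factor gene acj6, which acts in odorant receptor choice, held 2 inside its span, the stronger with a signal value of 344, and vvl and zf30C had one at 49 and 56 bp from their own TSS. Of 4 ppk channel genes of taste and pheromone sensing, ppk28 and ppk29 had 1 summit each in the window, neither at an own promoter, and that of ppk29 lay 4 bp from the TSS of eEF5.

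By chromosome the share of receptor genes with an IDR summit was 9.68% on 2L, 2.17% on 2R, 14.3% on 3L, 16.7% on 3R and 8% on X. The background ranged from 38.8% on 2R to 44.2% on 3L and X.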

How the data were processed

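The 4 deposited lists are narrowPeak tables on assembly dm6, per the labels. The text files deposited with them list the same control for both replicates, which was not analysed here. How reads were aligned and peaks called, and which IDR cut was applied, is not given in the sources used here. Signal values are a score deposited by the authors. The −log10 of a q-value in the deposited lists was not used. Summit positions are the authors' own.

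Genes and TSSs were those of Ensembl release 115 without Y. All 179 receptor genes have the same start and end in RefSeq release 6, whose genome gave the sequences. Software was Python 3.11.15, numpy 2.4.6, pandas 2.3.3, matplotlib 3.10.9 for plots and scipy 1.17.1 for intervals. The counting was tested on simulated data.

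The receptor genes, gene lists and motifs were chosen with earlier results of these data known. The genes named are those with an IDR summit, those with a pooled summit at an own promoter, the first 3 without any summit per family, the co-receptors, the sugar, carbon dioxide and bitter receptors, and Gr28b. Other genes were chosen after their values were seen. Alternatives changed the peak set, replicate, window, overlap, promoter width and chaining distance. The replicates are separate biosamples of 1 line.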

Additional observations from a re-analysis of the deposited data

How the results depend on the processing

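No paired analysis was possible because there is 1 group. The count of 18 receptor genes was 18 to 20 without either replicate and 18 when peaks were counted by overlap. It was 17 of the 173 genes with mostly unique sequence in the span, an alternative chosen after seeing the data. It was 11 with the 3963 strongest IDR peaks and 2 with the 1000 strongest, where 27.6% and 9.54% of all protein-coding genes were counted. With 0, 1, 5 or 10 kb either side it was 0, 11, 39 and 65, against 15.6%, 35.1%, 56.4% and 70.5% of all protein-coding genes. The count of 2 at an own promoter was 1 to 2 without either replicate. It was 0 with the 3963 strongest and 0 with the 1000 strongest, where 13.6% and 4.20% of all protein-coding genes were counted. These shares are below the 23.5% of the full IDR list, so a count of 0 stands against a lower background there. The own-promoter count was 0 within 250 bp and 4 within 1000 bp. Clustered genes with a summit numbered 0 with the 1000 strongest peaks and 5 with a chaining distance of 10 kb, and single genes 9 with the 3963 strongest and 2 with the 1000 strongest. The density of 2.27 per 100 kb was 1.48 with the 3963 strongest, 0.197 with the 1000 strongest and 2.27 to 2.57 without either replicate. The median distance of 15258 bp was 22078 and 68518 bp with these peak sets and 13931 to 15257 bp without either replicate. Wider windows and larger peak sets count more genes by their construction. Read depth is unknown, so a gene without a summit is one where none was listed, not one shown to be unbound.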
